A study of Homo sapiens with 24 samples.

Results

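The transforming growth factor beta (TGF-beta) pathway was followed here through 10 genes: the ligands TGFB1, TGFB2 and TGFB3, the related ligand subunit INHBA, the receptors TGFBR1 and TGFBR2, the signal carrier SMAD3, and the inhibitors SMAD7, SKIL and BAMBI. They were taken by symbol from a table of 35993 genes, and all 10 were present. RNA was sequenced from J82 and RT-112, established human bladder cancer cell lines, each in 4 forms with 3 replicates, giving 24 libraries. The forms were the parental line, cells with low amounts of the surface receptor CD44 (CD44 Low), cells with high amounts of it (CD44 High), and cells labelled by its splice variant CD44v6 (CD44v6). The submitters call the replicates biological. Whether they were separate cultures, how the derived forms were obtained and whether any is a single clone are not given in the sources used here, so the p-values measure the spread between these samples only. No treatment or time point is named for any group.

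TGF-beta ligands are secreted in a latent form and, once released, bring together the type II receptor TGFBR2 and the type I receptor TGFBR1. The active receptor phosphorylates SMAD2 and SMAD3, which enter the nucleus with SMAD4 and change transcription. SMAD7, SKIL (SnoN) and BAMBI dampen the signal at the receptor or on DNA, and their own transcripts are often raised by it. Activins, dimers of the INHBA product, use other type II receptors but the same SMADs. In epithelial cells the pathway is known for arresting growth and for favouring a mesenchymal state.

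Each library held between about 16752800 and 24419700 counts. Levels are given below as CPM, the usual measure of counts relative to library size, scaled together over the 24 libraries, and differences as log2 fold changes from edgeR's quasi-likelihood test with Benjamini-Hochberg adjustment over all genes tested; a gene is called changed at an adjusted p under 0.05. The order of CD44 followed the labels, with little room between parental and CD44 High in RT-112. In J82 it lay at 254 to 309 CPM for CD44 Low, 396 to 489 CPM for parental, 707 to 764 CPM for CD44 High and 612 to 1072 CPM for CD44v6 libraries. In RT-112 the same groups lay at 120 to 152, 293 to 347, 351 to 491 and 378 to 516 CPM, where CD44 High (0.41, adjusted p = 0.272) and CD44v6 (0.46, adjusted p = 0.163) did not pass the test against parental. These are gene totals and do not measure the v6 variant. The urothelial markers were largely missing from J82: of 6 listed, UPK2 and UPK3A were at 0 counts in all 12 libraries, and the list summed to 20.4 to 53.5 CPM against 668 to 1068 CPM in RT-112, where UPK3A was at 0. Keratins were abundant in both lines, while EPCAM averaged 1.79 CPM ± 0.44 (SD, n = 3) in parental J82 but 330 CPM ± 20.6 (SD, n = 3) in parental RT-112. Fibroblast markers (6 listed, DCN at 0 in every library) summed to 594 to 669 CPM in parental J82, 1067 to 1389 CPM in J82 CD44 Low, 431 to 482 CPM in J82 CD44 High and 429 to 553 CPM in J82 CD44v6. The epithelial list summed to 6445 to 7854 CPM in J82 CD44 Low and 8708 to 10594 CPM in J82 CD44 High; within it KRT7 averaged 1047 and 2824 CPM, and CDH1 5.71 and 0.508 CPM. In RT-112 the fibroblast sum was 215 to 272 CPM for CD44 Low, above the 120 to 184 CPM of CD44 High. COL1A2, COL3A1 and PDGFRB were at or near 0 there, and LUM averaged 232 CPM in CD44 Low and 141 CPM in CD44 High. In J82 COL3A1 averaged 1106 CPM in CD44 Low and 411 CPM in CD44 High, and LUM 23.5 and 11.6 CPM. The fibroblast sum thus rested mainly on a different gene in each line. The epithelial sum in RT-112 went the other way from J82, at 11902 to 14182 CPM in CD44 Low and 9495 to 10697 CPM in CD44 High. Within that list EPCAM alone was higher in RT-112 CD44 High, averaging 286 CPM in CD44 Low and 409 CPM in CD44 High. Both sums thus moved with the comparisons against CD44 Low, and their part in the results below was not tested.

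Some RT-112 libraries stood apart from their group. The first principal component of the 12 RT-112 libraries held 28.2% of the variance. On it, CD44 High replicates 1 and 2 lay at 38.7 and 36.5. Replicate 3 lay at 3.62, between the parental libraries (-11.0 to -2.37) and CD44v6 replicates 1 and 2 (13.1 and 11.6). CD44v6 replicate 3 lay at 41.0, beside CD44 High replicates 1 and 2. The CD44 Low libraries lay between -47.9 and -36.4. In FN1, a matrix gene, CD44 High replicate 3 (759 CPM) lay with CD44v6 replicates 1 and 2 (892 and 708 CPM). CD44v6 replicate 3 (518 CPM) was nearer CD44 High replicates 1 and 2 (433 and 409 CPM). Parental libraries held 295 to 364 CPM. In SKIL, CD44 High replicate 3 (751 CPM) lay above both the parental and the CD44v6 libraries. The cause of this arrangement was not tested. In J82 the CD44 Low libraries were spread over -63.2 to -28.8 on a first component that held 23.4% of the variance, and the CD44 High libraries over 26.2 to 35.0. Results that turn on these libraries are given below with and without them.

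The promoters of 5 of the 10 genes, picked by hand, are shown. Each of these genes was called in at least 2 of the 12 comparisons within lines, as was TGFB3, which is not shown. Each sequence is the 250 bases before the outermost annotated transcription start, 5′ to 3′ on the gene's strand, from RefSeq on GRCh38.p14 (all 10 genes were matched by symbol): TGFB1 at chr19:41353923-41354172 on the minus strand, TGFB2 at chr1:218345086-218345335 on the plus strand, TGFBR2 at chr3:30606106-30606355 on the plus strand, SMAD7 at chr18:48950966-48951215 on the minus strand and BAMBI at chr10:28677271-28677520 on the plus strand. Capitals mark matches, on either strand, to CAGAC, the short element that SMAD3 and SMAD4 bind, or to CACGTG, the E-box bound by MYC and USF proteins.
TGFB1: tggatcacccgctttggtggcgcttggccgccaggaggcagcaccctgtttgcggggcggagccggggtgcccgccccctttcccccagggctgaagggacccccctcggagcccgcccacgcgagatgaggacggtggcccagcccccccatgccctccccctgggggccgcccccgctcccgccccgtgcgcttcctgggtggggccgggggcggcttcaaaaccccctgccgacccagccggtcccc
TGFB2: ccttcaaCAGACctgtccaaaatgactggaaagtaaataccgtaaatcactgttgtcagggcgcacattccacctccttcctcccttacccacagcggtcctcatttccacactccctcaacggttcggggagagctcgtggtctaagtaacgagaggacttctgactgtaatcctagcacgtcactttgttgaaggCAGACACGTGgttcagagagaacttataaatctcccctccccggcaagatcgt
TGFBR2: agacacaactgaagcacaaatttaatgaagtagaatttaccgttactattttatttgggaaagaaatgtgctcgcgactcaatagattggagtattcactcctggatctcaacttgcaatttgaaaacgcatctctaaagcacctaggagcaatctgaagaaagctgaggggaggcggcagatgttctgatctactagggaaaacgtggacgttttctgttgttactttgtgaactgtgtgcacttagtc
SMAD7: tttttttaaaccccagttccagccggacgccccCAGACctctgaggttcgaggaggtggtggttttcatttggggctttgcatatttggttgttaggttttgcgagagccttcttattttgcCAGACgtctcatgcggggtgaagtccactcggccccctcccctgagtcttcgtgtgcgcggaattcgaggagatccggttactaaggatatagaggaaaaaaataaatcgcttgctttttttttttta
BAMBI: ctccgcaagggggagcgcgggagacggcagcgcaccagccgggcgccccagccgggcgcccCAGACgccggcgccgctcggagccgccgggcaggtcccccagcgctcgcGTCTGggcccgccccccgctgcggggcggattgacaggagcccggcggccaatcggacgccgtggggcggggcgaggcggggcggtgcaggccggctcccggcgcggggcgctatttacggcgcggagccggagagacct
These windows were searched on both strands for CAGAC, for the AP-1 element TGANTCA, for the cAMP response element TGACGTCA and for the E-box. The element CAGAC was found in 5 of the 10 genes (TGFB2, TGFB3, SMAD7, SKIL and BAMBI), and in 37.9% of 27326 promoter windows of the same length. TGFB2 held it at 243 and 53 bases before the start, SMAD7 at 217 and 128, and BAMBI at 189 and 140. CACGTG was found in TGFB2, TGFB3 and SMAD3 and in 6.47% of all windows; in TGFB2 it lies at 49 bases before the start, and its first base is the last base of the second CAGAC match. TGACGTCA was found in SKIL alone of the 10 and in 1.75% of all windows, and TGANTCA in none of the 10 and in 6.57%. The windows of TGFB1 and BAMBI were rich in G and C (76.8% and 81.2%), and that of TGFBR2 was not (40.8%). A match describes letters only and says nothing of a factor's binding, and these windows cannot be placed on the read counts.

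In the parental state the lines carried different parts of the pathway. J82 had high TGFB2 with little TGFBR2, and RT-112 had high TGFBR2 and SKIL with little TGFB2. Levels per kilobase of exon allow only a rough comparison of genes. The lengths join all exons annotated in GENCODE 29, and the annotation behind the counts is not given. By this measure parental J82 held TGFB2 at 121 ± 3.38 CPM per kb (SD, n = 3), TGFBR1 at 20.3 ± 0.92, SKIL at 12.9 ± 0.049, TGFBR2 at 1.54 ± 0.258 and TGFB1 at 1.23 ± 0.224. Parental RT-112 held SKIL at 82.5 ± 2.37 CPM per kb, TGFBR2 at 30.1 ± 1.12, TGFB1 at 6.71 ± 0.633, TGFBR1 at 6.31 ± 0.287 and TGFB2 at 0.904 ± 0.143. In J82 TGFBR1 exceeded TGFBR2, and in RT-112 the order was reversed; the neighbouring values of TGFBR2 and TGFB1 in J82, and of TGFB1 and TGFBR1 in RT-112, did not differ beyond their spread. The least abundant ligand genes per kilobase were TGFB3, at 0.125 ± 0.021 in J82 and 0.16 ± 0.05 in RT-112, and INHBA, at 0.666 ± 0.148 and 0.453 ± 0.123. SMAD3 was at 6.62 ± 0.534 CPM per kb in J82 and 8.48 ± 0.284 in RT-112.

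Between the parental lines 6 of the 10 genes were called, beside 62.0% of all 17438 genes tested (31.0% higher and 31.0% lower), so the share is close to the background. As these are bulk samples, fewer cells carrying a transcript and less of it per cell cannot be told apart, here or below. TGFB2 was higher in J82 (log2 fold change 7.06, SE 0.60, adjusted p = 8.47e-10) and TGFBR2 was lower (-4.28, SE 0.14, adjusted p = 1.57e-16). TGFBR1 was higher in J82 by 1.69 (SE 0.11), while TGFB1 (-2.44), SKIL (-2.68) and BAMBI (-0.59, adjusted p = 0.00676) were lower. SMAD7 did not pass the test, with 10.8 CPM ± 1.48 (SD, n = 3) in J82 and 10.5 CPM ± 3.23 (SD, n = 3) in RT-112 and a 95% interval of the log2 difference from -0.40 to 0.49. All 6 calls held without any single parental library.

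**Figure D1:**
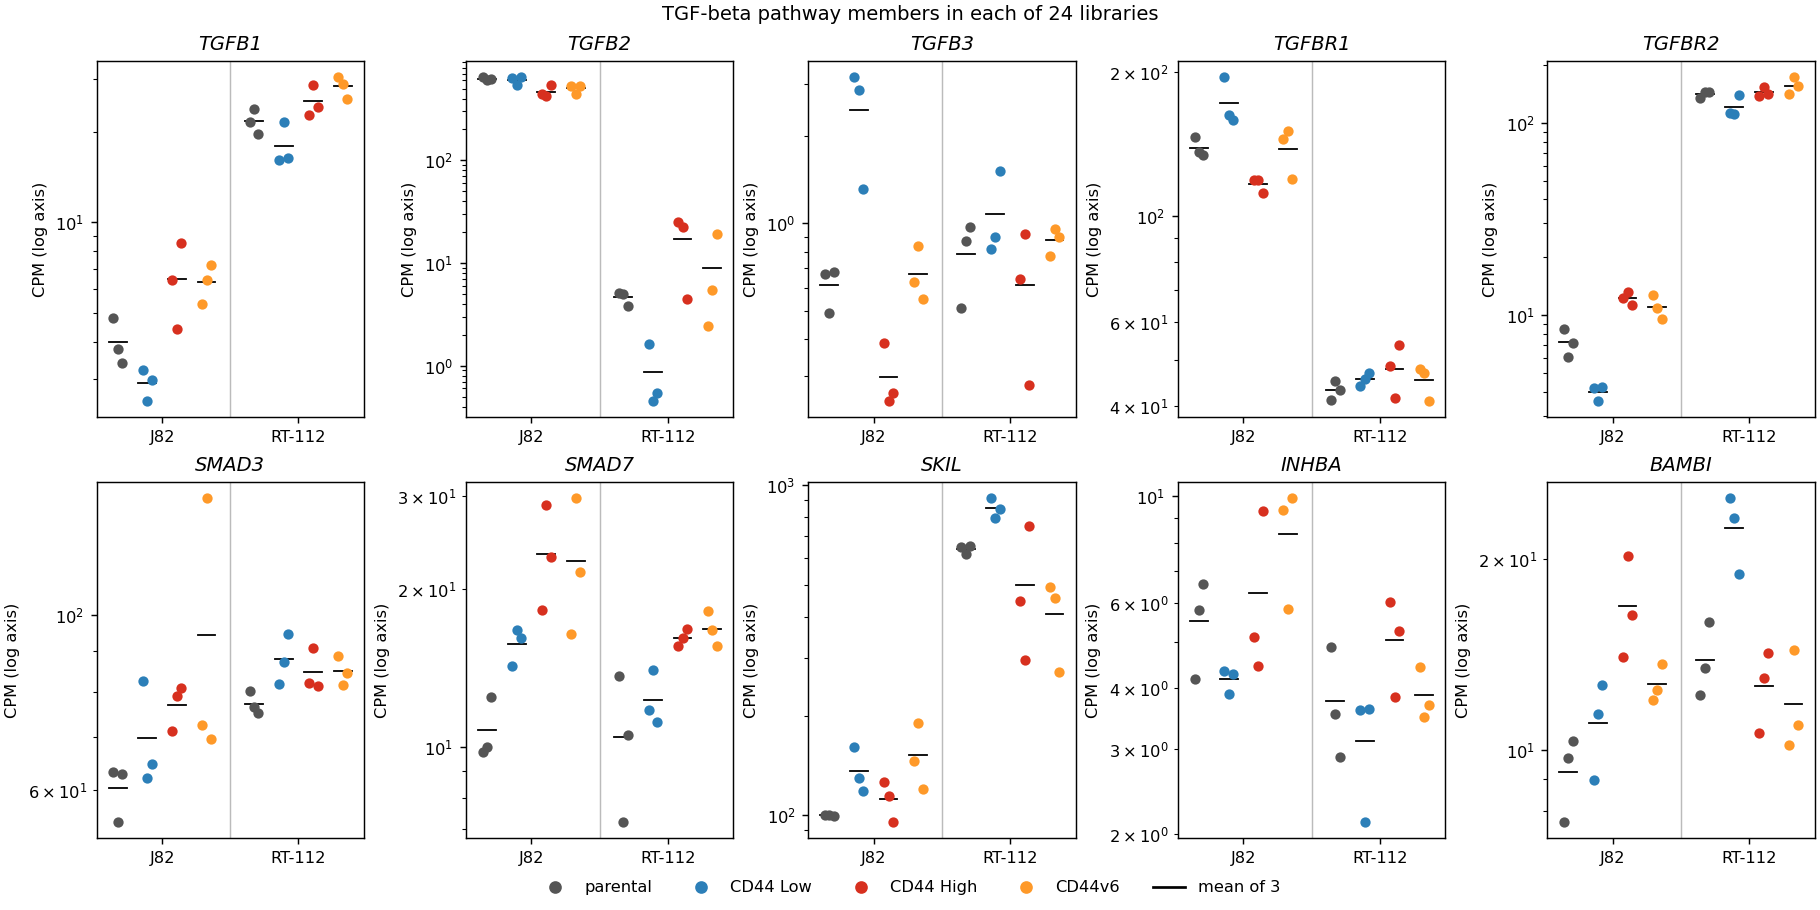
CPM of the 10 genes in each library, on a logarithmic axis that differs between panels; points are libraries, coloured by form, the short black line is the mean of the 3 replicates, and the grey line separates J82 from RT-112. TGFB2 lies between 420 and 644 CPM in J82 and between 0.45 and 24.9 CPM in RT-112, and the RT-112 CD44 High and CD44v6 points for TGFB2 and SKIL spread widely.

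Within the lines, most changes separated CD44 Low from the forms with more CD44. In J82 CD44 High against CD44 Low, TGFB1, TGFBR2 and BAMBI rose and TGFB2, TGFB3 and TGFBR1 fell, so 6 of the 10 genes were called beside 15.7% of the 15951 genes tested (8.83% higher, 6.90% lower); the median log2 fold change of the 10 was 0.36, and that of all genes -0.02. In the same comparison in RT-112, TGFB1 and TGFB2 rose and BAMBI fell: 3 of 10, beside 16.0% of 15645 genes (9.01% higher, 7.02% lower), with a median of 0.20 against 0.02 for all genes. In CD44v6 against CD44 Low, 4 genes were called in J82 (TGFB1, TGFBR2 and INHBA higher, TGFB3 lower), beside 9.58% of all genes (6.18% higher, 3.40% lower), and 5 in RT-112 (TGFB1, TGFB2 and TGFBR2 higher, SKIL and BAMBI lower), beside 16.0% (7.97% higher, 8.03% lower). These comparisons share the CD44 Low libraries of each line, so they are not independent of each other.

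Fewer genes were called against the parental lines. J82 CD44 Low differed from parental J82 in 2 genes (TGFB3 higher, TGFBR2 lower; background 5.34%, of which 2.26% higher and 3.08% lower), J82 CD44 High in 3 (SMAD7, TGFBR2 and BAMBI higher; background 2.94%, of which 1.71% higher and 1.23% lower) and J82 CD44v6 in 1 (SMAD7 higher; background 2.60%, of which 1.86% higher and 0.740% lower). RT-112 CD44 Low differed from parental RT-112 in 1 gene (BAMBI higher; background 3.20%, of which 1.33% higher and 1.87% lower). No gene of the 10 was called by edgeR in RT-112 CD44 High against parental (background 0.511%, of which 0.249% higher and 0.262% lower), where 2 had an unadjusted p under 0.05 and DESeq2 called 0, or in RT-112 CD44v6 against parental (background 0.614%, of which 0.288% higher and 0.326% lower), where 3 had such a p and DESeq2 called 1, SMAD7. CD44v6 and CD44 High were not told apart by edgeR in any of the 10 genes in either line, nor in any gene tested (background 0%). At an unadjusted p under 0.05 there were 4 of the 10 in J82 and 0 in RT-112, and DESeq2 called 0 of the 10 in both. The RT-112 result over all genes changed when 1 library was left out. Without CD44 High replicate 2, 431 genes were called between CD44v6 and CD44 High, none of them among the 10. Replicate 3 of each of these RT-112 groups also stood apart on the first principal component. CD44 High replicates 1, 2 and 3 lay at 38.7, 36.5 and 3.62, and those of CD44v6 at 13.1, 11.6 and 41.0. The part of these libraries in the result was not tested.

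**Figure D2:**
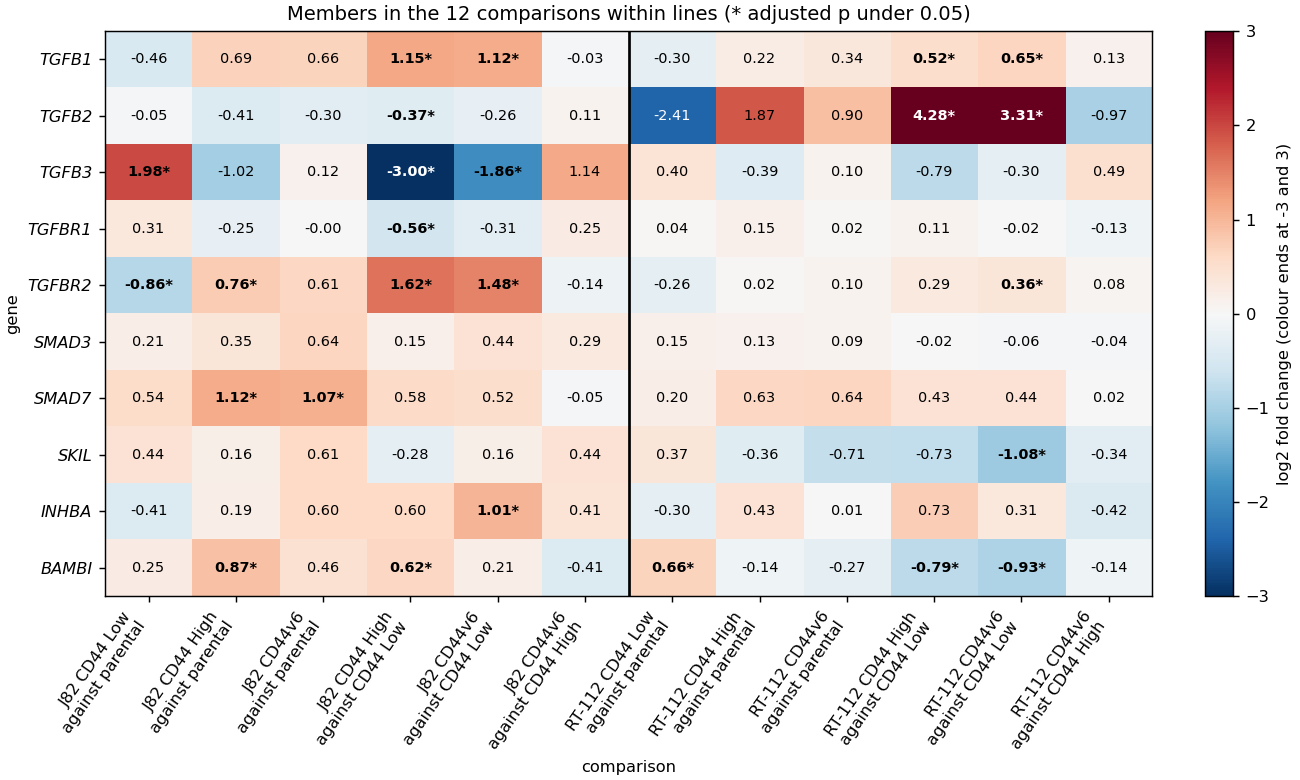
Log2 fold changes of the 10 genes (rows) in the 12 comparisons within lines (columns, J82 left of the black line), with colour from -3 to 3 and an asterisk at an adjusted p under 0.05. Calls gather in the comparisons against CD44 Low, and the CD44v6 against CD44 High columns hold no asterisk.

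TGFB1 encodes the most widely expressed TGF-beta ligand, and it was the only member called higher in both lines in both comparisons against CD44 Low. TGFBR2, SMAD7 and INHBA also had log2 fold changes above 0 in all of these, but were not called in each. In J82 TGFB1 was measured at 4.80, 3.78 and 3.40 CPM in the parental libraries, 3.23, 2.54 and 2.98 CPM for CD44 Low, 6.45, 4.41 and 8.56 CPM for CD44 High, and 5.33, 6.42 and 7.23 CPM for CD44v6. Every CD44 High and CD44v6 library of J82 lay above every CD44 Low library, with 47 to 164 counts behind each value in those 3 groups. The mean in CD44 High was 2.22 times that in CD44 Low (log2 fold change 1.15, SE 0.25, adjusted p = 0.00804) and in CD44v6 it was 2.17 times (1.12, SE 0.25, adjusted p = 0.014); without CD44 Low replicate 2 the second adjusted p was 0.0578.

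In RT-112, TGFB1 was several times more abundant. Its values were 21.6, 23.8 and 19.7 CPM for parental, 16.1, 21.6 and 16.4 CPM for CD44 Low, 22.9, 28.7 and 24.3 CPM for CD44 High, and 30.4, 29 and 25.8 CPM for CD44v6. CD44 Low overlapped the parental range but not those of CD44 High or CD44v6. The log2 fold change against CD44 Low was 0.52 (SE 0.13, adjusted p = 0.0175) for CD44 High and 0.65 (SE 0.13, adjusted p = 0.00668) for CD44v6. The CD44 High call was lost without CD44 Low replicate 1 (adjusted p = 0.0764), CD44 Low replicate 3 (0.0527) or CD44 High replicate 2 (0.0651), and in a fit of all 24 libraries (0.0839) or of the 6 alone (0.0769). TGFB1 shares 215 of its 3238 exon bases with HNRNPUL1 on the other strand, and it is not stated whether the counting used strand. HNRNPUL1, with up to 9443 counts, also rose against RT-112 CD44 Low, in CD44 High (0.45, adjusted p = 0.046) and in CD44v6 (0.46, adjusted p = 0.0433), while in J82 CD44 High against CD44 Low it was at -0.12 (adjusted p = 0.543); its part in the TGFB1 counts was not tested.

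TGFB2, the ligand with the highest level per kilobase in J82, fell there while it rose in RT-112. In J82 it was measured at 642, 609 and 616 CPM for parental, 627, 537 and 644 CPM for CD44 Low, 438, 420 and 540 CPM for CD44 High, and 527, 447 and 535 CPM for CD44v6. CD44 High lay below the parental range but touched that of CD44 Low, since its replicate 3 exceeded CD44 Low replicate 2. The mean was 0.773 times that of CD44 Low (log2 fold change -0.37, SE 0.11, adjusted p = 0.0421), a difference close to the threshold: it was lost with upper-quartile scaling (adjusted p = 0.0558), with no filter on low counts (0.0642), in a fit of all 24 libraries (0.636) or of the 6 alone (0.0696), and without CD44 Low replicate 1 or 3 or CD44 High replicate 1 or 2 (0.118 to 0.162). Against parental J82, CD44 High gave -0.41 (SE 0.11, adjusted p = 0.0695 by edgeR, 0.0175 with the replicate number as a block, 0.0248 in a fit of the 6 libraries alone and 0.00978 by DESeq2).

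RT-112 held far less TGFB2, and its libraries disagreed within groups. Parental values were 5.16, 5.0 and 3.81 CPM, and CD44 Low values 1.63, 0.45 and 0.542 CPM, from 38, 10 and 10 counts. CD44 High libraries were at 24.9, 22.2 and 4.50 CPM, and CD44v6 libraries at 2.44, 5.40 and 19.1 CPM. CD44 High replicates 1 and 2 and CD44v6 replicate 3 were high; the other CD44 High and CD44v6 libraries lay near the parental ones, and all CD44 Low libraries were below every other library. Against CD44 Low, the log2 fold change was 4.28 in CD44 High (SE 0.82, adjusted p = 0.00457) and 3.31 in CD44v6 (SE 0.82, adjusted p = 0.0182). The CD44 High call held without any single library of the compared groups (3.90 to 5.12, adjusted p up to 0.0267), including replicate 3 (4.74). The CD44v6 difference fell to 2.12 without CD44v6 replicate 3 (adjusted p = 0.0945), and its call was also lost without CD44 Low replicate 2 (2.98, 0.0727) or 3 (3.09, 0.0564).

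Against the parental line, no TGFB2 difference passed the test in RT-112. It was -2.41 in CD44 Low (SE 0.83, adjusted p = 0.14), 1.87 in CD44 High (SE 0.69, adjusted p = 0.289) and 0.90 in CD44v6 (SE 0.69, adjusted p = 0.591). Without CD44 High replicate 3 the second was 2.33 (adjusted p = 0.0724), and without CD44v6 replicate 3 the third turned to -0.29 (adjusted p = 0.919). In a fit of only the 6 libraries compared, TGFB2 was called lower in CD44 Low (-2.42, adjusted p = 0.00645). TGFB2 shares 1371 of its 5151 exon bases with TGFB2-OT1, a transcript annotated on the same strand with up to 241 counts, so counts may be split between them.

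**Figure D3:**
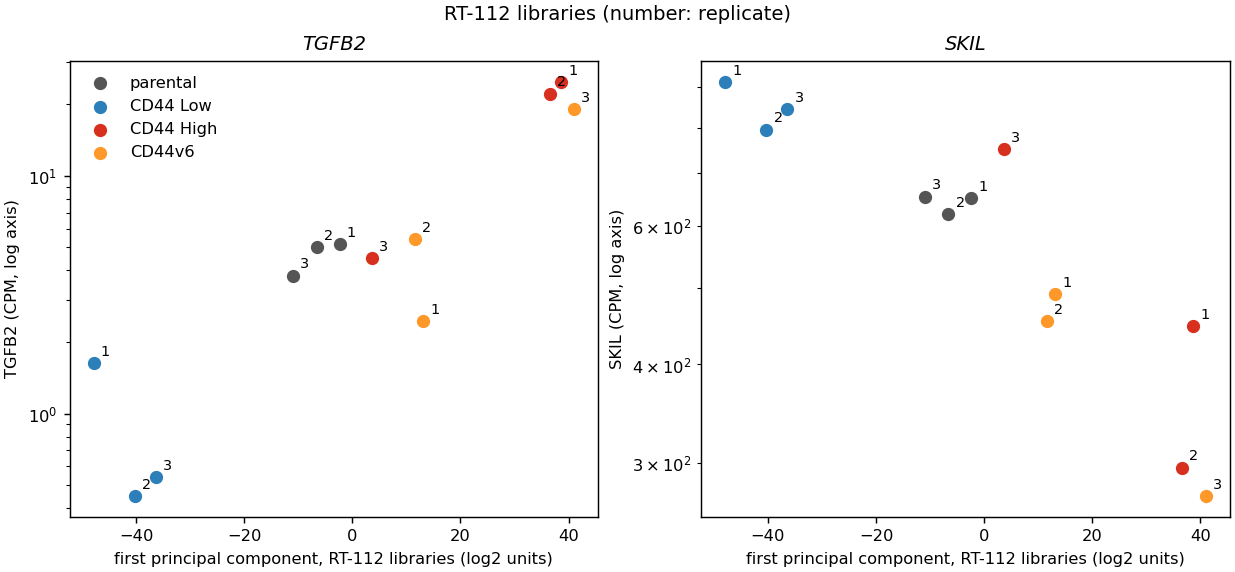
TGFB2 (left) and SKIL (right) in the 12 RT-112 libraries, in CPM on logarithmic axes, against each library's position on the first principal component; colours are the forms and numbers the replicates. CD44 High replicates 1 and 2 and CD44v6 replicate 3, at 36.5 to 41.0 on the component, hold the 3 highest TGFB2 values, while SKIL is highest in the CD44 Low libraries.

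TGFB3 was scarce in both lines, with 5 to 57 counts per J82 library and 6 to 28 per RT-112 library. In J82 it was at 0.667, 0.493 and 0.681 CPM for parental, 3.17, 2.86 and 1.32 CPM for CD44 Low, 0.387, 0.245 and 0.261 CPM for CD44 High, and 0.63, 0.833 and 0.548 CPM for CD44v6. CD44 Low lay above every other J82 library and CD44 High below every other. The gene rose in CD44 Low against parental (log2 fold change 1.98, SE 0.44, adjusted p = 0.0202), and fell against CD44 Low in CD44 High (-3.0, SE 0.47, adjusted p = 0.000839) and in CD44v6 (-1.86, SE 0.44, adjusted p = 0.0169). The CD44 High call held without any single library (adjusted p up to 0.0061). The call against parental was lost without any of the parental replicates or without CD44 Low replicate 1 or 2 (up to 0.11), and DESeq2 gave it no adjusted p; the CD44v6 call was lost without CD44 Low replicate 1 or 2 or CD44v6 replicate 1 or 3 (up to 0.0827) and in a fit of the 6 libraries alone (0.0711). In RT-112 the group means were 0.786 CPM ± 0.244 (SD, n = 3) in parental, 1.08 CPM ± 0.383 for CD44 Low, 0.615 CPM ± 0.321 for CD44 High and 0.874 CPM ± 0.094 for CD44v6, with overlapping ranges and no call.

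INHBA, which encodes the activin A subunit, was called in 1 comparison. J82 values were 4.18, 5.81 and 6.60 CPM for parental, 4.34, 3.89 and 4.29 CPM for CD44 Low, 5.12, 4.46 and 9.34 CPM for CD44 High, and 9.36, 5.83 and 9.92 CPM for CD44v6. Both of the latter groups lay above CD44 Low without overlap. CD44v6 against CD44 Low gave 1.01 on the log2 scale (SE 0.29, adjusted p = 0.0483), just inside the threshold; it was lost with upper-quartile scaling (0.0514), with no filter (0.0679), in a fit of the 6 libraries alone (0.0658), and without any of the CD44 Low replicates or without CD44v6 replicate 1 or 3 (0.0911 to 0.136). CD44 High against CD44 Low gave 0.60 in J82 (SE 0.29, adjusted p = 0.194). In RT-112 it gave 0.73 (SE 0.27, adjusted p = 0.0837), and the groups ranged over 3.85 to 6.05 and 2.12 to 3.63 CPM.

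The type II receptor TGFBR2 was called in 4 of the 6 J82 comparisons. Its values were 8.50, 6.08 and 7.12 CPM for parental, 4.18, 3.56 and 4.24 CPM for CD44 Low, 12.3, 13.1 and 11.3 CPM for CD44 High, and 12.8, 10.8 and 9.59 CPM for CD44v6. The 4 groups ordered CD44 Low, parental, then CD44 High and CD44v6, with no overlap except between the last pair. The mean in CD44 High was 3.07 times that in CD44 Low (log2 fold change 1.62, SE 0.17, adjusted p = 4.43e-05) and in CD44v6 it was 2.77 times (1.48, SE 0.17, adjusted p = 0.000136); both calls held without any single library and under every other setting run. CD44 Low fell below parental by 0.86 on the log2 scale (SE 0.17, adjusted p = 0.0123), a call lost without parental replicate 1 or CD44 Low replicate 2 (up to 0.0692). CD44 High rose above parental by 0.76 (SE 0.17, adjusted p = 0.0259), a call lost when any 1 of the 6 libraries compared was left out (0.0503 to 0.147). CD44v6 against parental gave 0.61 (SE 0.17), with adjusted p = 0.0696 by edgeR, 0.0274 by DESeq2 and 0.0129 by edgeR on all 24 libraries.

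In RT-112 TGFBR2 was far more abundant, and the values were 135, 145 and 144 CPM for parental, 112, 112 and 139 CPM for CD44 Low, 138, 153 and 141 CPM for CD44 High, and 141, 173 and 155 CPM for CD44v6. CD44v6 lay above CD44 Low without overlap (log2 fold change 0.36, SE 0.10, adjusted p = 0.0319), and that call was lost without CD44 Low replicate 1 or 2 or CD44v6 replicate 2 or 3 (0.0839 to 0.124), with no filter (0.0534) and in a fit of the 6 libraries alone (0.0584). CD44 High against CD44 Low gave 0.29 (SE 0.10, adjusted p = 0.0766).

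The type I receptor TGFBR1 moved the other way in J82. It was measured at 146, 136 and 134 CPM for parental, 195, 163 and 159 CPM for CD44 Low, 119, 119 and 112 CPM for CD44 High, and 145, 151 and 120 CPM for CD44v6. CD44 High lay below and CD44 Low above every other J82 library. The mean of CD44 High was 0.676 times that of CD44 Low (log2 fold change -0.56, SE 0.11, adjusted p = 0.00312), a call that held without any single library (adjusted p up to 0.0171). CD44v6 against CD44 Low gave -0.31 (SE 0.11), with adjusted p = 0.0854 by edgeR, 0.0409 with the replicate number as a block and 0.0465 by DESeq2. In RT-112 TGFBR1 stayed between 40.9 and 53.6 CPM in all 12 libraries and was called in no comparison; its interval for CD44 High against CD44 Low ran from -0.12 to 0.34.

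SMAD3, which carries the signal to the nucleus, was called in none of the 12 comparisons within lines by edgeR on the 12 libraries of a line; its lowest unadjusted p was 0.0114, in J82 CD44v6 against parental. J82 values were 63.3, 54.7 and 62.9 CPM for parental, 82.4, 62.2 and 64.9 CPM for CD44 Low, 71.2, 78.9 and 80.9 CPM for CD44 High, and 72.6, 141 and 69.6 CPM for CD44v6. CD44v6 replicate 2 stood far above the rest, and the same library held the highest J82 value of CD44 (1072 CPM), SMAD7 and SKIL. J82 CD44v6 against parental gave 0.64 (SE 0.22), with adjusted p = 0.138 by edgeR, 0.046 by DESeq2 and 0.0421 by edgeR on all 24 libraries. J82 CD44 High against parental gave 0.35 (SE 0.22, adjusted p = 0.477), and in a fit of the 6 libraries alone the adjusted p was 0.0312. In RT-112 SMAD3 ranged only from 75.2 to 94.8 CPM.

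SMAD7 encodes the inhibitory SMAD that takes the receptor out of action, and it is a direct transcriptional target of the pathway. In J82 it was at 9.79, 10.02 and 12.5 CPM for parental, 14.3, 16.7 and 16.1 CPM for CD44 Low, 18.2, 28.8 and 23.0 CPM for CD44 High, and 16.4, 29.8 and 21.5 CPM for CD44v6. All 9 libraries of the derived J82 forms lay above the parental ones. SMAD7 rose against parental in CD44 High (2.17 times the mean; log2 fold change 1.12, SE 0.21, adjusted p = 0.0137) and in CD44v6 (2.10 times; 1.07, SE 0.21, adjusted p = 0.0236). The first call was lost without parental replicate 1 or 2 or CD44 High replicate 2 (0.0697 to 0.088), and the second without any of the parental replicates or CD44v6 replicate 2 (0.0538 to 0.136) and in a fit of the 6 libraries alone (0.0684). CD44 Low against parental gave 0.54 (SE 0.21, adjusted p = 0.158, and 0.0365 in a fit of the 6 libraries alone). CD44 High against CD44 Low gave 0.58 (SE 0.21, adjusted p = 0.0794, and 0.0331 with the replicate number as a block).

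RT-112 values of SMAD7 were 13.7, 7.21 and 10.5 CPM for parental, 11.7, 14 and 11.2 CPM for CD44 Low, 15.6, 16.1 and 16.8 CPM for CD44 High, and 18.2, 16.7 and 15.5 CPM for CD44v6. CD44 High and CD44v6 lay above the parental and the CD44 Low libraries without overlap, but no difference passed edgeR's test on the 12 libraries. CD44 High against parental gave 0.63 (SE 0.19, adjusted p = 0.19) and CD44v6 0.64 (SE 0.19, adjusted p = 0.133 by edgeR and 0.0366 by DESeq2). CD44v6 against CD44 Low gave 0.44 (SE 0.18, adjusted p = 0.121, and 0.0447 in a fit of the 6 libraries alone). The differences from parental were of the same sign in both lines, and for CD44v6 the test between lines gave 0.38 (95% interval -0.24 to 1.0, adjusted p = 0.608).

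SKIL encodes SnoN, a co-repressor that binds the SMADs on DNA. In RT-112, where it was abundant, it was measured at 651, 621 and 654 CPM for parental, 915, 795 and 845 CPM for CD44 Low, 447, 296 and 751 CPM for CD44 High, and 492, 454 and 272 CPM for CD44v6. CD44 Low lay above every other RT-112 library, CD44v6 below every parental one, and CD44 High replicate 3 stood above the parental range while its replicates 1 and 2 stood below it. The differences from parental did not pass the test, at 0.37 in CD44 Low (SE 0.27, adjusted p = 0.499) and -0.71 in CD44v6 (SE 0.27, adjusted p = 0.234), but fits of the 6 libraries alone called both (adjusted p = 0.0107 and 0.0354). SKIL fell in CD44v6 against CD44 Low (log2 fold change -1.08, SE 0.27, adjusted p = 0.0202); the call was lost without CD44v6 replicate 3 (-0.85, 0.0835) or CD44 Low replicate 1 (-1.03, 0.0659). CD44 High against CD44 Low gave -0.73 (SE 0.27, adjusted p = 0.0843) and, without CD44 High replicate 3, -1.16 (adjusted p = 0.00356); with all 24 libraries it gave -0.77 (0.0375). In J82 SKIL was at 99.8 to 101 CPM for parental, 118 to 161 CPM for CD44 Low, 95.5 to 126 CPM for CD44 High and 120 to 191 CPM for CD44v6, with no call by edgeR on the 12 libraries. There, CD44v6 against parental gave 0.61 (SE 0.16), with adjusted p = 0.0652 by edgeR, 0.0342 with the replicate number as a block and 0.00868 by DESeq2. CD44 Low against parental J82 gave 0.44 (SE 0.16, adjusted p = 0.131), and 0.0365 in a fit of the 6 libraries alone.

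BAMBI encodes a receptor-like protein that lacks a kinase and blocks TGF-beta receptors. In CD44 High against CD44 Low it changed in opposite directions in the lines. J82 values were 7.70, 9.69 and 10.3 CPM for parental, 8.96, 11.4 and 12.6 CPM for CD44 Low, 14, 20.2 and 16.3 CPM for CD44 High, and 12, 12.4 and 13.6 CPM for CD44v6. CD44 High lay above every other J82 library. BAMBI rose in J82 CD44 High against parental (log2 fold change 0.87, SE 0.17, adjusted p = 0.0177) and against CD44 Low (0.62, SE 0.17, adjusted p = 0.0288). The first call was lost without parental replicate 1 or 2 or CD44 High replicate 2 (up to 0.109), and the second without CD44 Low replicate 1 or 2 or CD44 High replicate 2 or 3 (up to 0.128) and in a fit of the 6 libraries alone (0.0547).

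In RT-112, BAMBI was at 12.2, 13.4 and 15.9 CPM for parental, 25.0, 23.2 and 19.0 CPM for CD44 Low, 10.6, 13.0 and 14.2 CPM for CD44 High, and 10.2, 14.4 and 10.9 CPM for CD44v6. CD44 Low lay above every other RT-112 library, and the other 3 groups overlapped. It rose in CD44 Low against parental (0.66, SE 0.16, adjusted p = 0.0434), a call lost without any of the parental replicates or without CD44 Low replicate 1 or 2 (0.0579 to 0.188), with no filter (0.0605) and with the replicate number as a block (0.0696). It fell against CD44 Low in CD44 High (-0.79, SE 0.16, adjusted p = 0.00625) and in CD44v6 (-0.93, SE 0.16, adjusted p = 0.00313), and both calls held without any single library (adjusted p up to 0.0321 and 0.0178).

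The difference between J82 and RT-112 was then tested directly, in a fit of all 24 libraries. For CD44 High against CD44 Low, 5 of the 10 genes differed between the lines, beside 10.7% of 17438 genes (6.24% higher, 4.42% lower). TGFBR2 (1.36, SE 0.18, adjusted p = 5.44e-05) and BAMBI (1.44, SE 0.25, adjusted p = 0.000718) changed more positively in J82. TGFB2 (-4.60, SE 0.81, adjusted p = 0.000799), TGFB3 (-2.19, SE 0.64, adjusted p = 0.0306) and TGFBR1 (-0.64, SE 0.15, adjusted p = 0.00687) changed more negatively there. TGFB1 rose in both lines, with a difference between them of 0.66 (SE 0.28, adjusted p = 0.141). Of these 5, the TGFB3 call was lost when 1 of 8 libraries was left out: replicate 1 or 2 of J82 CD44 Low, of RT-112 CD44 Low or of RT-112 CD44 High, or J82 CD44 High replicate 2 or 3 (adjusted p up to 0.101). The other 4 held in all 12 such fits.

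For CD44 Low against parental, edgeR called none of the 10 genes as different between lines (background 1.06%, of which 0.304% higher and 0.757% lower), with 3 at an unadjusted p under 0.05; DESeq2 called 1, TGFBR2 (-0.64, adjusted p = 0.0488). For CD44v6 against parental, edgeR also called none (background 0.138%, of which 0.0688% in each direction), with 3 at an unadjusted p under 0.05, and DESeq2 called 1, SKIL (1.31, adjusted p = 0.0108; by edgeR 1.27, adjusted p = 0.114).

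**Figure D4:**
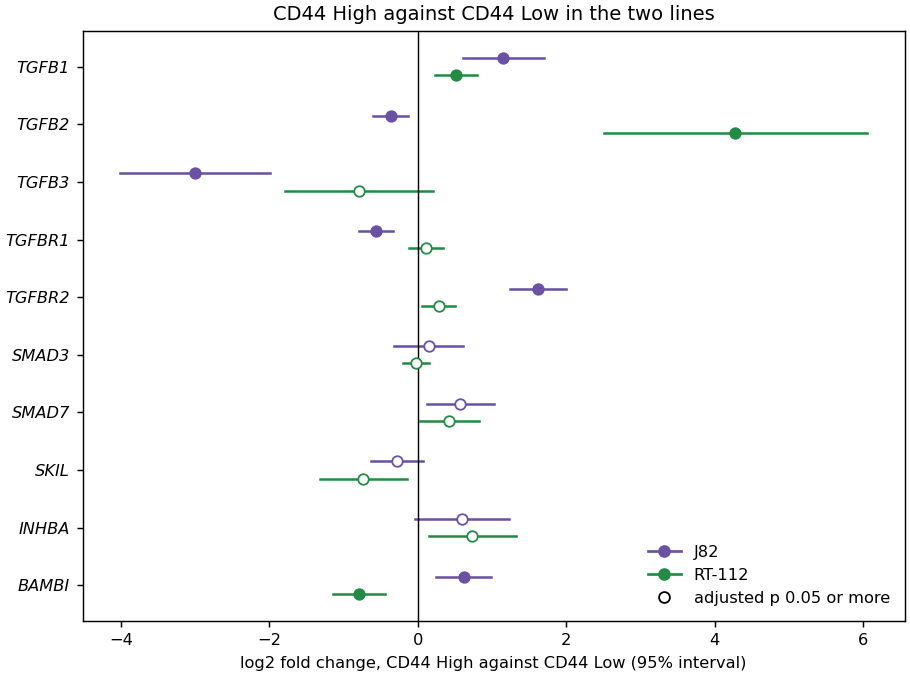
Log2 fold change of CD44 High against CD44 Low for the 10 genes in J82 (purple) and RT-112 (green), with 95% intervals; filled points passed an adjusted p under 0.05. TGFB1 is above 0 in both lines, and TGFB2 and BAMBI lie on opposite sides of 0 in the lines.

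A further 52 genes of the pathway were counted in 5 lists: latency and activation, other ligands and antagonists, other receptors, other SMADs with co-repressors and ubiquitin ligases, and transcripts often induced by TGF-beta. Of these, 44 were tested in J82 and 47 in RT-112. In CD44 High against CD44 Low, 10 were called in J82 (8 higher, 2 lower) beside 15.7% of all genes, and 13 in RT-112 (12 higher, 1 lower) beside 16.0%. Their medians were 0.04 and 0.15, against -0.02 and 0.02 for all genes. Of the 17 often-induced transcripts tested in each line, 5 rose and 2 fell in J82, and 3 rose in RT-112. In CD44v6 against CD44 Low, 11 of 44 were called in J82 (9 higher, 2 lower; background 9.58%) and 14 of 47 in RT-112 (13 higher, 1 lower; background 16.0%). The RT-112 counts moved with single libraries: CD44 High against CD44 Low had 6 without CD44 Low replicate 1, 7 without CD44 Low replicate 2 and 14 without CD44 High replicate 3, and CD44v6 against CD44 Low had 6, 9, 7 and 7 without CD44 Low replicate 1, CD44 Low replicate 2, CD44v6 replicate 2 and CD44v6 replicate 3. Against parental J82 the calls were 6 in CD44 Low (3 higher, 3 lower; background 5.34%), 8 in CD44 High (7 higher, 1 lower; background 2.94%) and 8 in CD44v6 (7 higher, 1 lower; background 2.60%). Against parental RT-112, 1 gene was higher in each of CD44 Low (background 3.20%), CD44 High (0.511%) and CD44v6 (0.614%).

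Called higher in both lines in CD44 High against CD44 Low were SMURF2, PMEPA1 and TGFBI. Of all genes tested, 8.83% were called higher in J82 and 9.01% in RT-112. The share of all genes called higher in both lines was not counted. SMURF2, a ubiquitin ligase that works with SMAD7, rose by 0.74 (SE 0.10) in J82 and 0.55 (SE 0.11) in RT-112, with adjusted p = 0.000268 and 0.00448. PMEPA1, a feedback inhibitor that binds SMAD2 and SMAD3, rose by 0.65 (SE 0.16) and 0.30 (SE 0.09), with adjusted p = 0.0145 and 0.0348; its level differed widely, at 7.03 CPM ± 0.281 (SD, n = 3) in parental J82 but 344 CPM ± 6.24 (SD, n = 3) in parental RT-112. The J82 call of PMEPA1 was lost without CD44 High replicate 3 (adjusted p = 0.0566), and the RT-112 call without CD44 Low replicate 1 or 2 or CD44 High replicate 2 or 3 (0.0631 to 0.13), with no filter (0.0991), in a fit of all 24 libraries (0.081) and in one of the 6 alone (0.121). TGFBI, a matrix protein named for its induction by TGF-beta, rose by 2.49 (SE 0.17, adjusted p = 8.4e-07) in J82, from 26.3 CPM ± 2.69 to 147 CPM ± 30.1 (SD, n = 3), and by 0.35 (SE 0.10, adjusted p = 0.0258) in RT-112, from 235 CPM ± 11.2 to 294 CPM ± 51. The RT-112 call of TGFBI was lost without any of the CD44 Low replicates or CD44 High replicate 2 (0.0537 to 0.0941), with no filter (0.0611), in a fit of all 24 libraries (0.137) and in one of the 6 alone (0.114). The change in TGFBI differed between the lines (2.16, SE 0.20, adjusted p = 4.68e-07).

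The largest called changes among the 52 were in scarce genes: FST, the activin antagonist follistatin, in J82 (3.93, SE 0.39, adjusted p = 2.56e-05), and INHBB, another activin subunit, in RT-112 (2.08, SE 0.40, adjusted p = 0.00479). Both averaged below a log2 CPM of 3 and were named after their values were seen. FST differed between the lines by 2.71 (adjusted p = 0.0456), a call lost in 10 of 12 fits without 1 library (adjusted p up to 0.313). The other genes described were those above that level with the largest called changes. In J82 these were CDKN1A (1.22, SE 0.22, adjusted p = 0.00236) and CDKN2B (-1.71, SE 0.10, adjusted p = 3.8e-07), both encoding inhibitors of the cell cycle, and ID1 (1.02, SE 0.21, adjusted p = 0.00629), a transcription inhibitor that answers mainly to BMP signals. CDKN2B had 0 counts in all RT-112 libraries. In RT-112 they were THBS1 (1.46, SE 0.24, adjusted p = 0.00226), whose product activates latent TGF-beta, FN1 (1.35, SE 0.23, adjusted p = 0.0025), the matrix protein fibronectin, SKI (1.05, SE 0.16, adjusted p = 0.00129), a co-repressor related to SKIL, and ITGB6 (-0.76, SE 0.24, adjusted p = 0.0482), an integrin subunit that releases latent TGF-beta. RT-112 CD44 High replicate 3 stood apart in several of these: without it THBS1 was at 1.68 (adjusted p = 0.000449), FN1 at 1.0 (0.00209), SKI at 1.18 (0.000449) and ITGB6 at -1.14 (0.00227). The ITGB6 call was lost when any other library of the 6 was left out (0.0854 to 0.169), with no filter (0.0601), with the replicate block (0.0771) and in a fit of the 6 libraries alone (0.0691). ITGB6 had 0 counts in all J82 libraries. Changes of FN1 (-1.76, adjusted p = 0.00309), SKI (-1.52, adjusted p = 0.00944), CDKN1A (1.78, adjusted p = 0.000648) and ID1 (1.03, adjusted p = 0.0129) differed between J82 and RT-112.

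**Figure D5:**
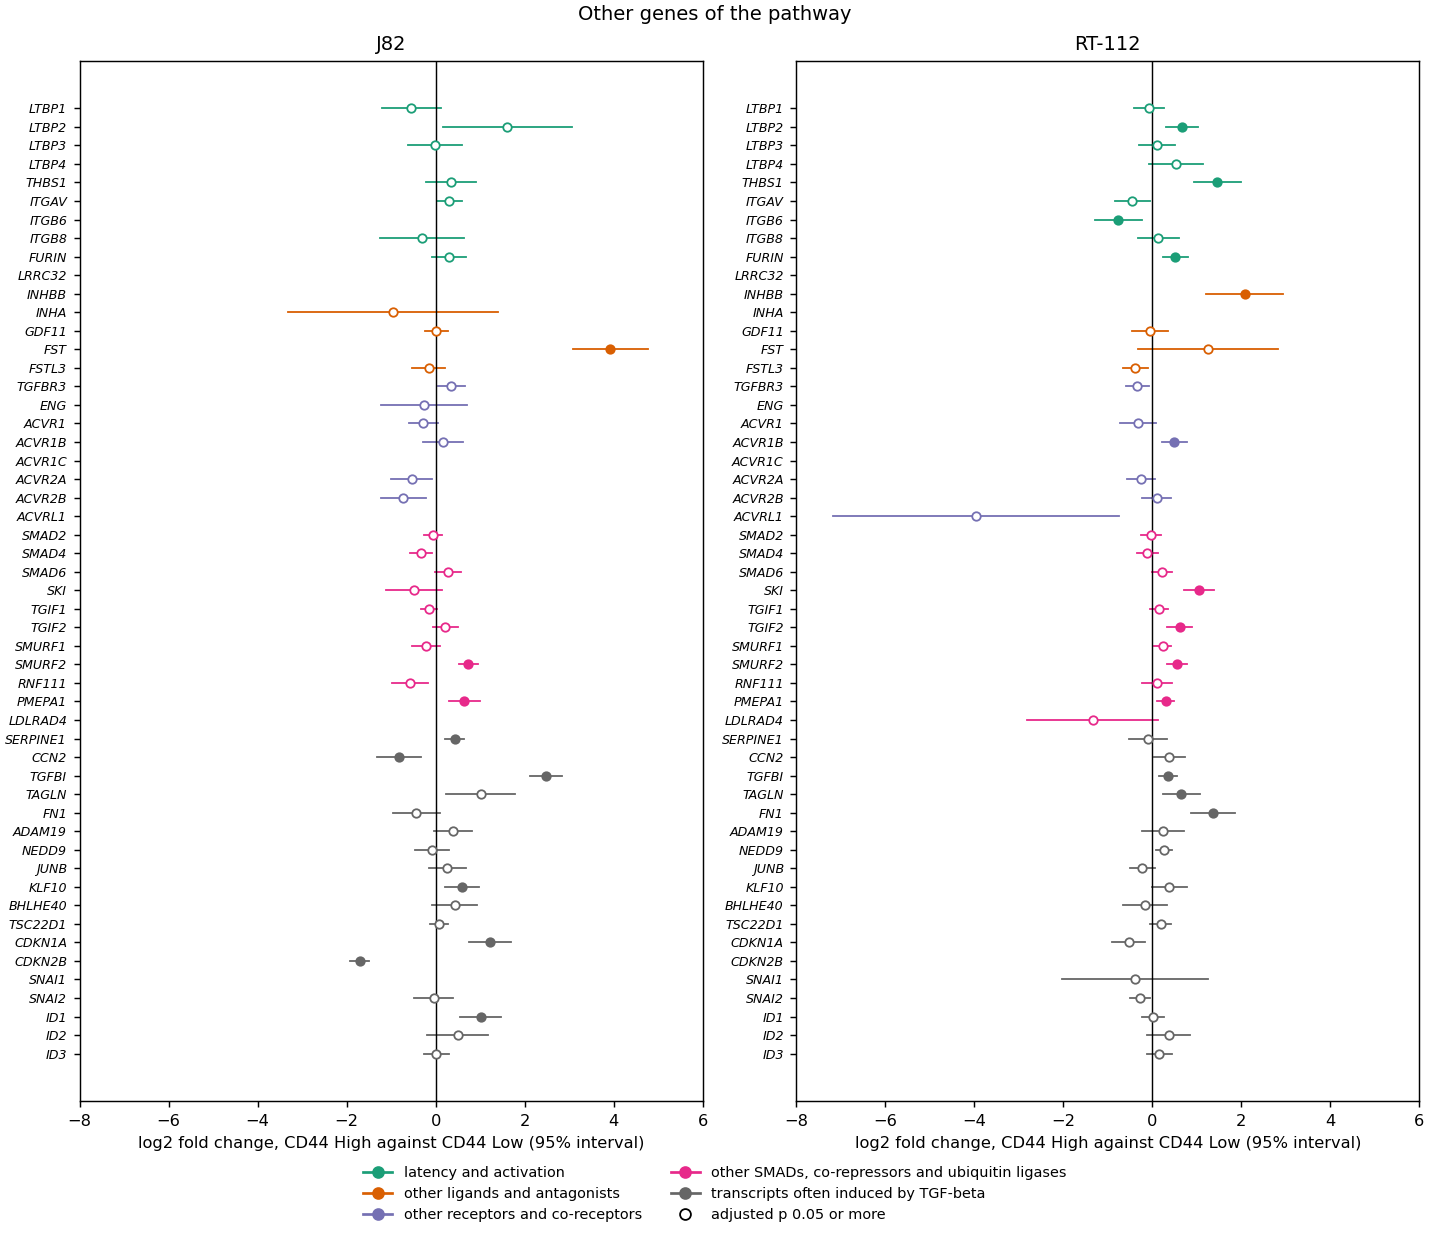
Log2 fold change of CD44 High against CD44 Low, with 95% intervals, for the 52 further pathway genes in J82 (left) and RT-112 (right), coloured by list; filled points passed an adjusted p under 0.05 and genes with no point were not tested in that line. TGFBI, SMURF2 and PMEPA1 are filled and above 0 in both panels.

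TGFBR2 and BAMBI were each called in 5 of the 12 comparisons within lines, the most of the 10 genes. The comparisons share libraries, and the share of all genes called that often was not counted, so the number only ranks the 10. Over the 8 group means of log2(CPM + 1), centred within each line, the genes nearest to TGFBR2 among 14237 genes tested in both lines were TRIML2 (root mean square difference 0.056), PHLDA1 (0.062) and VAV2 (0.066). Centred TGFBR2 means ran from -0.85 in CD44 Low to 0.56 in CD44 High in J82, and from -0.22 to 0.16 in RT-112. Nearest to BAMBI were SLFN5 (0.078), EHHADH (0.081) and PHLDA3 (0.102). BAMBI was highest in CD44 High in J82 (0.43) and in CD44 Low in RT-112 (0.58).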

How the data were processed

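RNA from 24 libraries of J82 and RT-112 bladder cancer cells was sequenced, and the deposited table holds raw counts per gene symbol, whole numbers with no normalization. The submitters' processing notes name HISAT2, StringTie and GRCh37; versions, gene annotation and strand setting are not given in the sources used here. Genes were fitted with edgeR 4.0.16 in R 4.3.3: genes passing filterByExpr (minimum count 10), TMM factors, a quasi-likelihood test, 12 libraries per line for the comparisons within lines and all 24 for those between lines, with Benjamini-Hochberg adjustment over all genes tested. The 10 genes passed the filter in both lines and are given in every comparison. The other pathway genes named are those called in CD44 High against CD44 Low in both lines and, per line, the 4 with the largest called change at an average log2 CPM of at least 3. Members and lists were chosen with earlier results of these data known. Similar patterns were ranked with a pseudocount of 1. Exon lengths and overlaps come from GENCODE 29, and promoters and gene matches from RefSeq on GRCh38.p14; neither is the build of the counts, so no coordinate was joined to them. All replicate pairs differed by more than counting noise (chi-square per degree of freedom 6.03 to 58.7). Same-numbered replicates deviated together (every correlation over 0.1) only in J82 CD44v6 against CD44 High (0.113, 0.109 and 0.252); the numbers come from the sample titles. No sequencing batch is named in the labels. The named pathway genes were refitted under the same alternatives, a choice made after seeing the data. Alternatives were median-of-ratios and upper-quartile scaling, no filter, DESeq2 1.42.0, a replicate block, other sets of libraries in the fit, and leaving out each library. The fitting script was tested on simulated data. Intervals and tests rest on 3 libraries per group.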

Additional observations from a re-analysis of the deposited data

Results flagged for a closer look

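For 5 genes the effect of CD44 High against CD44 Low differed between J82 and RT-112 by edgeR's interaction test with Benjamini-Hochberg adjustment (J82 minus RT-112, log2 scale, 3 libraries in each of the 4 groups). The difference was -4.60 for TGFB2 (adjusted p = 0.000799), where all CD44 High libraries of RT-112 lay above all CD44 Low libraries and the J82 groups overlapped. It was -2.19 for TGFB3 (adjusted p = 0.0306), a gene with 5 to 57 counts per J82 library and 6 to 28 per RT-112 library; the J82 groups did not overlap and the RT-112 groups did. It was -0.64 for TGFBR1 (adjusted p = 0.00687), which was lower in all 3 CD44 High libraries of J82 and overlapped in RT-112. It was 1.36 for TGFBR2 (adjusted p = 5.44e-05), whose J82 groups did not overlap and whose RT-112 groups did. It was 1.44 for BAMBI (adjusted p = 0.000718), where J82 CD44 High lay above CD44 Low and RT-112 CD44 High lay below it, without overlap in either line.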

How the results depend on the processing

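Counts of the 10 genes called kept within 1.5 times of the reported count under median-of-ratios and upper-quartile scaling in every comparison. DESeq2 called 1 in J82 CD44 Low against parental (reported 2; it gave TGFB3 no adjusted p), 4 in J82 CD44v6 against parental (1), 1 in RT-112 CD44v6 against parental (0), and 1 each in the differences between lines for CD44 Low and CD44v6 against parental (0 and 0). Fits of only the 6 libraries compared called 4 and 6 in J82 CD44 Low and CD44 High against parental (2 and 3), 0 in J82 CD44v6 against parental (1), 2 in J82 CD44v6 against CD44 Low (4), 3 in RT-112 CD44 Low against parental (1) and 1 in RT-112 CD44v6 against parental (0). A fit of all 24 libraries called 3 in J82 CD44v6 against parental. With no filter, RT-112 CD44 Low against parental had 0. With the replicate number as a block, J82 CD44v6 against parental had 2 and RT-112 CD44 Low against parental 0; J82 CD44v6 against CD44 High, where the numbers paired the libraries, had 0 as without it. Elsewhere not every correlation between same-numbered replicates was over 0.1. In J82 CD44 High and CD44v6 against CD44 Low, those of replicate 3 were 0.230 and 0.378. Leaving out 1 library gave 0 to 2, 0 to 3 and 0 to 4 calls in J82 CD44 Low, CD44 High and CD44v6 against parental, 4 to 5 in J82 CD44 High against CD44 Low, 1 to 4 in J82 CD44v6 against CD44 Low, 0 to 2 in RT-112 CD44 Low against parental, 2 to 4 in RT-112 CD44 High and 2 to 5 in RT-112 CD44v6 against CD44 Low, 4 to 6 between lines for CD44 High against CD44 Low and 0 to 1 for CD44v6 against parental; the remaining counts did not move. No called gene changed direction. Of differences not called, TGFB2 in RT-112 CD44v6 against parental ran from -0.29, without CD44v6 replicate 3, to 1.36 when 1 library was left out, and SKIL in RT-112 CD44v6 against CD44 High ran from -0.59 to 0.084, the latter without CD44 High replicate 3. Over all genes, edgeR and DESeq2 called 852 and 1488 in J82 CD44 Low, 469 and 910 in J82 CD44 High, 415 and 1061 in J82 CD44v6, and 500 and 985, 80 and 292, and 96 and 587 in the same RT-112 forms against parental, 0 and 74 in J82 and 0 and 2 in RT-112 for CD44v6 against CD44 High, and 185 and 536 and 24 and 463 between lines for CD44 Low and CD44v6 against parental. The cause of these changes was not tested. Precision is limited by 3 libraries per group and, for TGFB3, TGFB2 in RT-112 and INHBA, by low counts.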
